A study of Mus musculus with 12 samples.

Results

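The genes described here encode the proteins of the cytosolic ribosome, with their paralogs, in mouse oocytes of 2 ages and 4 genotypes. They were chosen by symbol, as every gene model named Rpl or Rps with a number (allowing a letter or an l ending), together with Rpsa, Rplp0, Rplp1 and Rplp2. The rule found 89 models among 55385 in a table of 8 libraries and the same 89 among 55401 in a table of 4. Of these, 77 are core genes, 31 of the small subunit and 46 of the large subunit with its stalk. Another 7 are paralogs, namely Rpl22l1, Rpl39l, Rpl3l, Rpl10l, Rpl7l1, Rps27l and Rps4l. The last 5, Rps12l1, Rps3a2, Rps3a3, Rpl6l and Rpl32l, carry paralog-like names but are processed pseudogenes in the annotation, and are called copies here. Other ribosomal parts, such as Fau, Rack1 and Rpl36al, fall outside the rule.

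RNA-seq was made from oocytes of 6 groups with 2 libraries each. Non-growing oocytes came from ovaries of postnatal day 6 and growing oocytes from day 7. Growth stage and age thus cannot be told apart, and changes with growth below refer to this comparison. Every group carried Ddx4-Cre, which recombines in germ cells. For Polycomb repressive complex 2 (PRC2), controls were EedF/+ and conditional knockouts (cKO) EedF/- at both stages. For Polycomb repressive complex 1 (PRC1), growing oocytes alone were taken. The control was Ring1-/- with Rnf2F/+, and the group labelled PRC1 cKO was Ring1-/- with a floxed allele over a null one that the label also names Ring1. Both PRC1 groups thus lacked Ring1, and no group without Cre was analysed here. The unit is TPM, a transcript abundance scaled for gene length whose total is 1000000 for each library. It keeps no record of sequencing depth. Levels are given for both libraries of a group, in the order replicate 1 and 2. The labels do not say that they came from separate animals, so p-values measure only the spread between these libraries.

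Each ribosome holds 1 copy of nearly every core protein, so cells make these proteins in matched amounts and break down the surplus. Most of the mRNAs begin with a C followed by a run of pyrimidines, the TOP motif, through which their translation follows nutrient and growth signals. An oocyte that starts to grow builds up ribosomes that the early embryo later uses. Paralogs can take the place of a core protein, and several are known from the germ line: in mouse, Rpl10l and Rpl39l serve spermatogenesis, when the X-linked Rpl10 and Rpl39 are silenced.

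The clearest difference within a pair below concerns Rps27, a small-subunit protein with a zinc finger, and Rps27l. The next shown is that of Rpl39, a small protein at the exit tunnel, and Rpl39l. Rps27 (ENSMUSG00000090733, chr3:90212522-90213651) and Rps27l (ENSMUSG00000036781, chr9:66946086-66949516) lie on different chromosomes, like Rpl39 (ENSMUSG00000079641, chrX:37082520-37085402) and Rpl39l (ENSMUSG00000039209, chr16:10170226-10174911; all GRCm38). The coding sequences without their stop codons, from the GENCODE vM21 transcripts, show how far reads can tell the members of a pair apart, and capitals mark the bases that differ.
Rps27: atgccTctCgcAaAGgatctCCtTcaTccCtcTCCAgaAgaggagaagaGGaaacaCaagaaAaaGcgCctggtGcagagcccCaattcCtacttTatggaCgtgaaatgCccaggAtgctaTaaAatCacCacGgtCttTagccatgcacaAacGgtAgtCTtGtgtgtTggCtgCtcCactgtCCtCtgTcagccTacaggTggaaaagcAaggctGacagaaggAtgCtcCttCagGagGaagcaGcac
Rps27l: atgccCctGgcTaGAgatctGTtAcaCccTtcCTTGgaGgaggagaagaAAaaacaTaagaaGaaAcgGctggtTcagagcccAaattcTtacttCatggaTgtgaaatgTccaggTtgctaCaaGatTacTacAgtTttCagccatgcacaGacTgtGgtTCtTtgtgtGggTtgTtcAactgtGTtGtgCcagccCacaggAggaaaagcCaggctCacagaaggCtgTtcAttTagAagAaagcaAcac
Rpl39: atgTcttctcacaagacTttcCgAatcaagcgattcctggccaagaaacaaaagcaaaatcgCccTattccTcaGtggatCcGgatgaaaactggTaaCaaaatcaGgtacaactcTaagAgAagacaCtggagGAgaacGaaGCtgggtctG
Rpl39l: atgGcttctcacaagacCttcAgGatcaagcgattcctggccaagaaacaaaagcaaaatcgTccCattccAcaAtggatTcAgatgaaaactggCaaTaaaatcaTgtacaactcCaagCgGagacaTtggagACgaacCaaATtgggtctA
Rps27 and Rps27l differed at 60 of 252 bases, with no shared run longer than 11 bases in the transcripts. Rpl39 and Rpl39l differed at 23 of 153 bases, with a longest shared run of 38. In none of the 7 pairs did parent and paralog share a run as long as a read of 150 bases. Pseudogene models are another matter. For Rps27, 98.0% of 150-base windows of the longest coding transcript also occur in 2 other gene models, against 0 windows for Rps27l, Rpl39 and Rpl39l. How the authors assigned reads that match several places was not given in the sources used here, and its part in the level of Rps27 was not tested.

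Stretches near the starts of genes named below are shown because many core genes hold a pyrimidine run there. Only genes in which a run was found could be shown. Changes of genes with and without a run were not compared. Each window of 30 bases (RefSeq, GRCm38.p6) was placed around the first such run, not around the annotated start, and is printed on the gene's strand with the run in capitals.
Rps27 (chr3:90213629-90213658, minus strand): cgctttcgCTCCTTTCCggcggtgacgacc
Rps27l (chr9:66946058-66946087, plus strand): cctccactCCTCTCCactcctccccgccgc
Rpl13a (chr7:45128722-45128751, minus strand): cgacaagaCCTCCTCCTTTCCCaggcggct
Rpl4 (chr9:64173362-64173391, plus strand): tgacaagtCTTTCCTTTTCCTgtgggagca
Rpl18 (chr7:45718064-45718093, plus strand): gcaggccgCTCTTTCCCCgcccactccggc
Rps26 (chr10:128626481-128626510, minus strand): cgccggatCCTCTTTCgagtcttggctcca
Rpl37a (chr1:72711276-72711305, plus strand): cattgcgtCCCTTCCTCTTCggacttgggc
Rpl9 (chr5:65391382-65391411, minus strand): cgaaagacgttCTCTCTTTgccccatctac
Rpl22l1 (chr3:28805503-28805532, plus strand): agcccgttCTCTTCCCacggctgcagctca
Counted from the annotated start, the run began within 4 bases in Rps27, Rpl13a, Rpl18, Rps26 and Rpl22l1. In Rps27l the marked run opens at the limit of the search, 20 bases before the start, and the pyrimidines continue further before it. The run began 17 bases before the start in Rpl4, 24 bases after it in Rpl37a and 31 after it in Rpl9. In these 4 genes the run is thus not at the annotated start. A run of at least 7 bases, opening with C and then holding C or T alone, was searched on the gene's strand from 20 bases before to 50 bases after the start. It was present in 44 of the 57 core genes that the promoter table holds (77.2%), against 29.4% of all 27025 promoters. Among 6 paralogs in that table it was present in Rpl22l1, Rps27l, Rpl39l and Rpl3l. Fixed motifs were searched on both strands of the 300 bases around the start, and no overlap between them was removed. CCGGAAG, a binding motif of ETS factors, was in 40.4% of the core promoters and 9.12% of all promoters. GGGCGG was in 59.6% and 35.9%, AAGATGG in 14.0% and 6.48%, CACGTG in 8.77% and 7.24%, and TATAAA in 8.77% and 14.2%. These matches describe letters in the windows, not bound sites.

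The libraries were checked by their markers and targeted genes. All 12 oocyte markers were at 1 TPM or more in both libraries of every group, with a summed level between 5708 and 18868 TPM. Within that list Gdf9, Bmp15, Zp1 and Zp3 were lower in both PRC1 cKO libraries than in both controls. Ddx4, Dazl, Figla, Nobox, Sohlh1 and Lhx8 were higher, and Zp2 and Kit overlapped. Bmp15 was at 447.5 and 354 TPM in PRC1 control and 22.1 and 74.2 TPM in PRC1 cKO. Sohlh1 was at 89.97 and 157 TPM and 986 and 598 TPM. PRC2 control non-growing oocytes had 13.9 and 14.3 TPM of Bmp15 and 334 and 359 TPM of Sohlh1. Gdf9 was at 596 and 637 TPM there and at 1572 and 2205 TPM in PRC1 cKO. In the same order Zp1 was at 388 and 407 TPM and 1435 and 1407 TPM. Zp2 was at 1936 and 2072 TPM and 3037 and 2438 TPM, and Zp3 at 2256 and 2316 TPM and 4458 and 4595 TPM. These latter markers thus lay above the non-growing values in PRC1 cKO. The part of the oocyte markers in the PRC1 result was not tested. Granulosa cell markers (10 genes) summed to between 4.29 and 12.1 TPM in every group but PRC1 cKO, where they summed to 36.7 and 22.9 TPM. From 1 to 3 of them were at 1 TPM or more in both libraries of those groups, and 4 in PRC1 cKO. Stromal, endothelial and blood markers summed to at most 12.01 TPM in any library. In PRC2 cKO libraries Eed lay between 9.64 and 12.1 TPM, and in PRC2 controls between 60.5 and 90.5 TPM. Ring1 was listed at 0 in both PRC1 controls and at 0.01 and 0.02 TPM in PRC1 cKO. Rnf2 was at 59.2 and 53.8 TPM in PRC1 control and 87.8 and 61.4 TPM in PRC1 cKO (0.37 on the log2 scale, limma adjusted p = 0.197), with both cKO libraries above the controls. A value over a whole gene does not check the loss of a floxed part, so the label PRC1 cKO is used as given.

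Ribosomal protein genes took a smaller part of the RNA in growing than in non-growing oocytes. In PRC2 control they held 5.58 and 5.58% of all TPM in the non-growing libraries and 1.90 and 1.69% in the growing ones. In PRC2 cKO the shares were 5.98 and 5.83% and 1.82 and 1.57%. All 4 growing libraries lay below all 4 non-growing ones. The means were 1.74 ± 0.148% and 5.74 ± 0.200% (SD, n = 4), a 3.29-fold lower share (exact two-sided permutation test over 8 libraries, p = 0.0286, the smallest that 4 against 4 can give). Here and in the permutation tests below, control and cKO libraries of a stage were pooled, and the permutation was not kept within genotype. In bulk samples fewer cells of a type and less RNA per cell cannot be told apart, and a share says nothing of the RNA content of an oocyte.

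Other models moved with the shares. Models of the annotation class TEC, which await experimental evidence, held 2.57 and 2.48% of TPM in control non-growing oocytes and 24.1 and 23.9% in control growing oocytes. Of the TPM in nuclear protein-coding genes alone, ribosomal protein genes held 6.68 ± 0.315% in non-growing and 2.86 ± 0.291% in growing oocytes (SD, n = 4), a 2.34-fold lower share (exact two-sided permutation test, p = 0.0286). Rps4l and the copies are not protein-coding in the annotation and are left out of shares on this scale. The difference thus remained on both scales and was smaller on the second. Granulosa markers summed to between 4.29 and 6.70 TPM in the 4 non-growing and between 8.18 and 10.98 TPM in the 4 growing libraries, with Amh at 0 in all non-growing ones. Within that list Nr5a2 went from between 0.16 and 0.48 TPM to between 4.69 and 6.03 TPM, while Krt18 went from between 0.99 and 3.36 TPM to between 0.12 and 0.20 TPM. Immune markers (7 genes) summed to between 0.71 and 2.02 TPM and between 4.81 and 13.6 TPM. Most of that sum in growing libraries was C1qb, at 3.54 to 11.05 TPM, and Cd68, at 1.20 to 2.81 TPM, with C1qa at 0. Their part in the stage difference was not tested.

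In the PRC1 table the controls held 1.69 and 1.87% of TPM in these genes and the libraries labelled PRC1 cKO 3.91 and 3.26%, a 2.01-fold higher mean. Both PRC1 cKO libraries lay above both controls and below the non-growing oocytes of the other, separately normalized table. Of nuclear protein-coding TPM, the share was 1.71-fold higher. With 2 against 2 libraries no exact permutation test can go below p = 0.333, so no test of the share is given. TEC models held 22.5 and 20.9% in PRC1 control and 11.05 and 14.9% in PRC1 cKO. Granulosa markers also moved with the group, as given above. Immune markers summed to 14.2 and 15.2 TPM in the PRC1 controls and 43.2 and 36.6 TPM in PRC1 cKO, with 2 of 7 genes at 1 TPM or more in both groups. Models at 1 TPM or more numbered 12313 and 12592 in the controls and 15582 and 14940.0 in PRC1 cKO. Their part in the result was not tested.

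**Figure D1:**
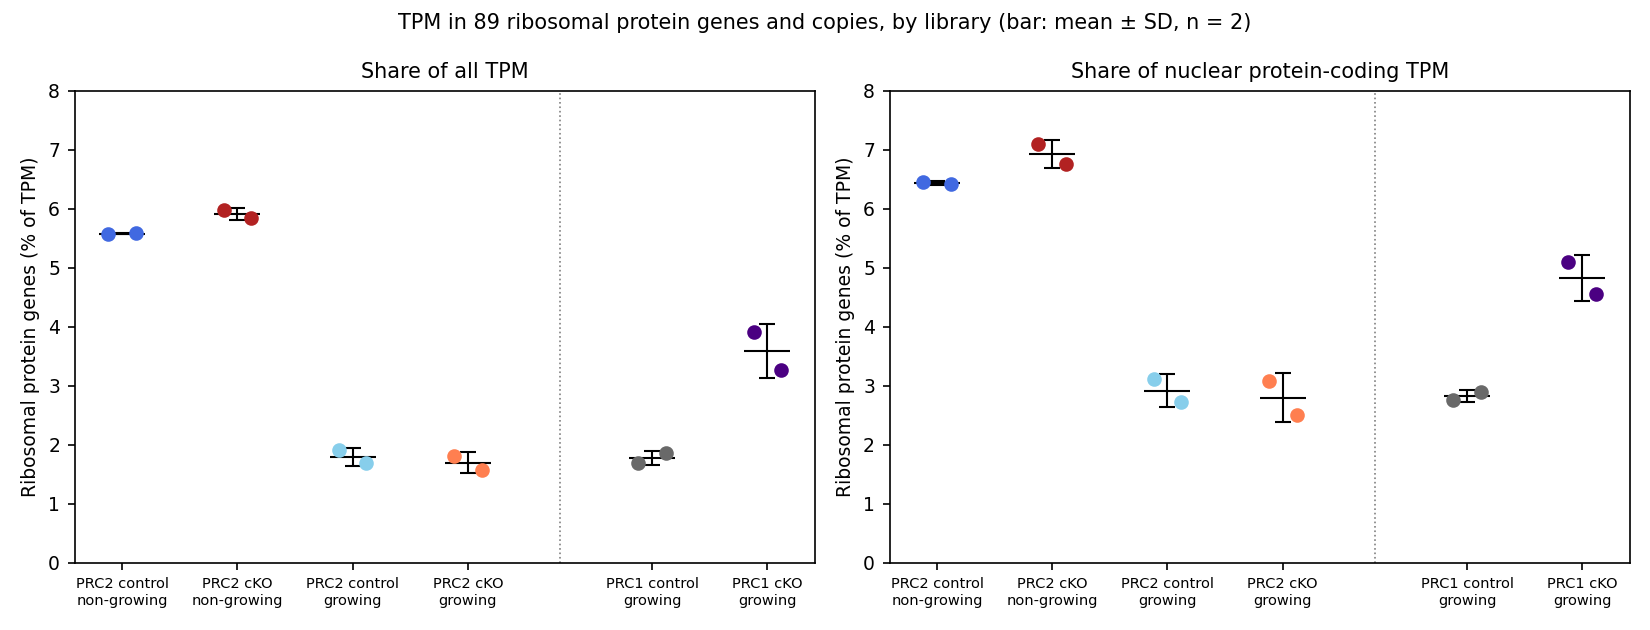
Share of TPM (percent, vertical axis) in ribosomal protein genes. On the left is the share of all TPM in the 89 genes and copies. On the right is the share of nuclear protein-coding TPM in the protein-coding members alone, without Rps4l and the copies. Points are libraries, bars are the group mean ± SD (n = 2), and the dotted line separates the 2 tables; growing PRC2 libraries lie between 1.57 and 1.90% of all TPM, and non-growing ones between 5.58 and 5.98%.

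Within a group the core genes differed widely in level, as TPM per length. Their median was 500.05 TPM in PRC2 control non-growing oocytes (means of 2 libraries), with an interquartile range of 289.7 to 827 TPM. In PRC2 control growing oocytes it was 168 TPM, in PRC1 control 173 TPM and in PRC1 cKO 345 TPM. Rpl35, which sits by the exit tunnel, was among the highest in the PRC2 table, at 2860.3 and 2702 TPM in control non-growing and 873 and 720.5 TPM in control growing oocytes. Rps19, mutated in human Diamond-Blackfan anaemia, was among the highest in the PRC1 table, at 422 and 489.6 TPM in PRC1 control and 1674 and 1204 TPM in PRC1 cKO. Rps27 and Rpl32 also stood near the top.

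The lowest core genes were the same in both tables, Rpl12 at the base of the stalk, Rpl5, which carries the 5S rRNA, and Rpl27a. In PRC2 control non-growing oocytes Rpl12 was at 15.7 and 15.9 TPM, Rpl5 at 14.6 and 14.7 TPM and Rpl27a at 25.9 and 26.2 TPM. Since a ribosome holds nearly all core proteins in equal amounts, such levels are read here only as the deposited values. Windows of 150 bases shared with other models made up 44.4% of Rpl12 and 45.8% of Rpl5. Over the 77 core genes the shared part and the level had a Spearman correlation of -0.199, a description across genes of 1 group. In all, 68 of 77 core genes shared at least 1 window with another model, and 16 at least 50%.

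**Figure D2:**
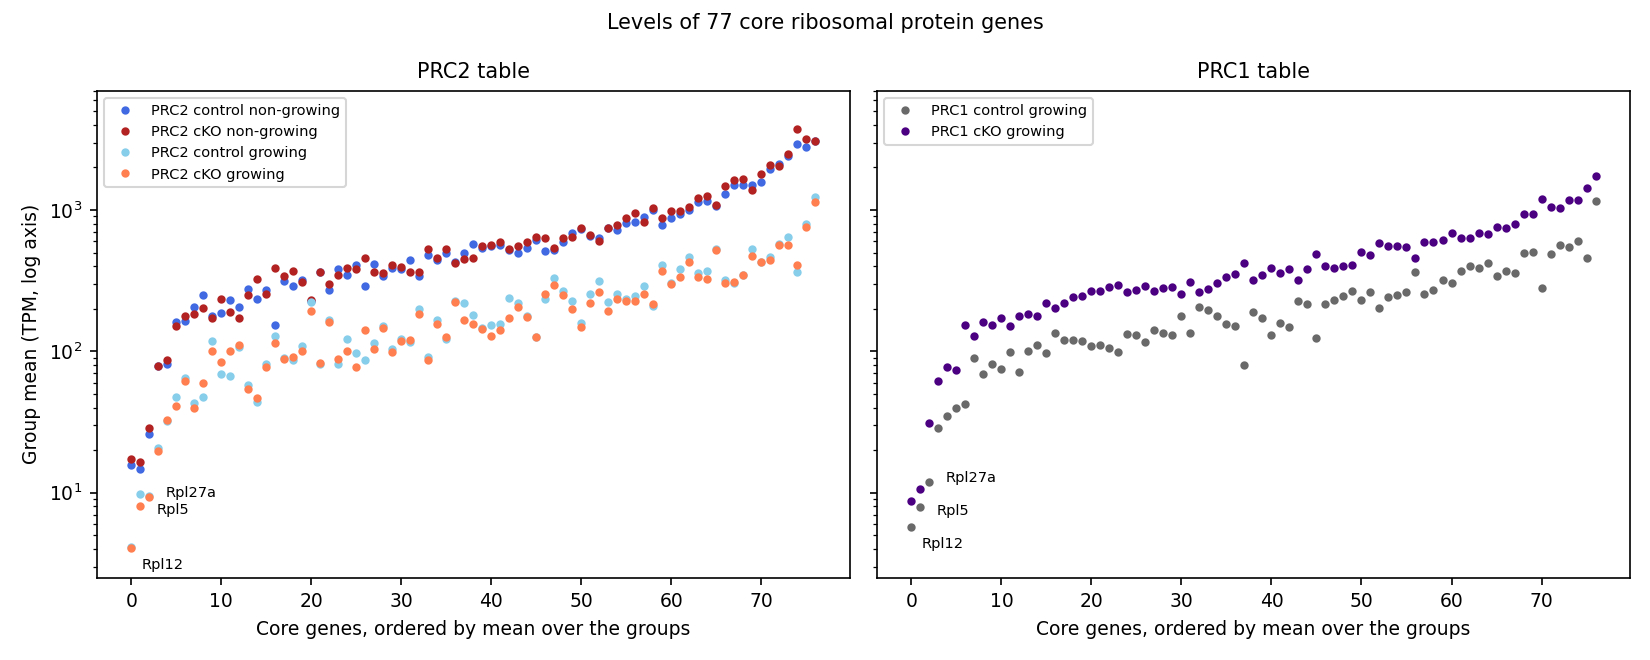
Group mean TPM (logarithmic vertical axis) of each of the 77 core genes, ordered from left to right by the mean over the groups of a table, in the PRC2 table (left) and the PRC1 table (right). Points are group means of 2 libraries; the growing groups lie below the non-growing ones for most genes, and PRC1 cKO lies above PRC1 control for all 77.

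Core genes fell from non-growing to growing oocytes almost without exception. In PRC2 control 75 of 77 core genes were lower in growing oocytes by limma (adjusted p under 0.05 over all 14153 genes tested) and none was higher. Of all genes tested, 54.0% were lower and 16.6% higher, so a fall was common at this stage. The median log2 fold change of core genes was -1.68, beside -0.67 for all genes tested. In PRC2 cKO 76 of 77 were lower, where 46.0% of all genes were lower and 20.1% higher, and the medians were -1.74 and -0.45. All 77 core genes were above 3 TPM in every library, so the filter on low values chose none of them. Both subunits took part, with control medians of -1.75 for the small and -1.66 for the large subunit. The stalk genes Rplp0, Rplp1 and Rplp2 all fell, with changes of -1.02, -1.67 and -0.92.

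Rpl13a, a large-subunit protein, was at 1011 and 976 TPM in control non-growing and 219 and 202 TPM in control growing oocytes. In PRC2 cKO its levels were 1034 and 1023 TPM and 222 and 214 TPM. The 4 growing libraries lie close together and far below the others, with log2 fold changes of -2.24 in control (SE 0.07, limma adjusted p = 2.96e-06) and -2.23 in cKO (SE 0.07, limma adjusted p = 2.58e-06). Rpl4, which lines the exit tunnel, fell from 1459 and 1523 TPM to 322 and 287 TPM in control (-2.29, SE 0.09). Rpl8, close to the catalytic centre, fell from 364 and 405 TPM to 86.2 and 76.5 TPM (-2.23, SE 0.09). Neither gene had overlapping libraries between the stages. The log2 fold changes of Rpl32 and Rpl18 in control were -1.88 and -1.84.

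Rps27 had the largest fall of the core genes. It was at 2992 and 2849 TPM in control non-growing and 3882 and 3596 TPM in cKO non-growing oocytes. Growing libraries had 412 and 315 TPM in PRC2 control and 469 and 341 TPM in PRC2 cKO, so the stages do not overlap. Its log2 fold changes were -3.02 in control (SE 0.18, limma adjusted p = 1.74e-05) and -3.22 in cKO. Rpl3, next to the catalytic centre, came next in control with -2.69. Rps28, at the messenger exit of the small subunit, had -2.40 in control and came next in cKO with -2.80. Rpl3 was uneven among control growing libraries, at 75.8 and 18.8 TPM, and at 63.3 and 56.2 TPM in cKO growing ones. Without control growing replicate 2 its control change was -1.72.

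A few core genes did not follow the others. Rps13, a small-subunit protein, was in control at 219 and 237 TPM in non-growing and 228 and 216 TPM in growing oocytes, with overlapping libraries (-0.04, limma adjusted p = 0.68, and 0.78 with trimmed-mean scaling, adjusted p = 0.000996). In PRC2 cKO it was at 227 and 234 TPM and 194 and 193 TPM, a fall of small size (-0.25, limma adjusted p = 0.0248) that turned to 0.33 with trimmed-mean scaling and 0.25 when values were rescaled to nuclear protein-coding genes. Of its windows 75% are shared with 5 other models. Rps18, in the head of the small subunit, was uneven among libraries. Non-growing libraries had 167 and 139.5 TPM of it in the controls and 401 and 371 TPM in PRC2 cKO, and growing libraries 96.2 and 159 TPM in the controls and 163 and 66.2 TPM in PRC2 cKO. Its stage change did not pass in control (-0.30, limma adjusted p = 0.534) and did in cKO (-1.88, limma adjusted p = 0.00598). In cKO the 1 gene that did not pass was Rps2, at 125 and 255 TPM in non-growing and 124 and 78.5 TPM in growing oocytes (limma adjusted p = 0.084), where replicate 1 of the non-growing libraries stands apart from replicate 2. Rps13 and Rps2 were singled out here after their values were seen.

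The scale of TPM bears on the stage comparison. As deposited, 2346 genes were higher and 7640 lower in control growing oocytes, and with trimmed-mean scaling 4163 and 3883. In cKO the splits were 2844 and 6516, and 4414 and 4173. The median of all genes moved from -0.67 to -0.03 in control and from -0.45 to 0.01 in cKO. Of 85 ribosomal protein genes, copies included, 82 were lower and 1 higher in control as deposited, and 59 and 2 after trimmed-mean scaling. In cKO, 83 and 1 became 74 and 2. Of the 77 core genes 55 were then lower and 1 higher in control, and 68 and 1 in cKO. With that scaling 7 core genes had a change above 0 in control, Rpl5, Rps18 and Rps13 among them, and of the 7 Rps13 alone passed. In cKO this was Rps13 alone. Relative to all genes, the core median was lower by 1.01 on the log2 scale in control as deposited, and by 0.83 after trimmed-mean scaling, so the core median lay below that of all genes under both. In cKO these differences were -1.29 and -1.16.

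**Figure D3:**
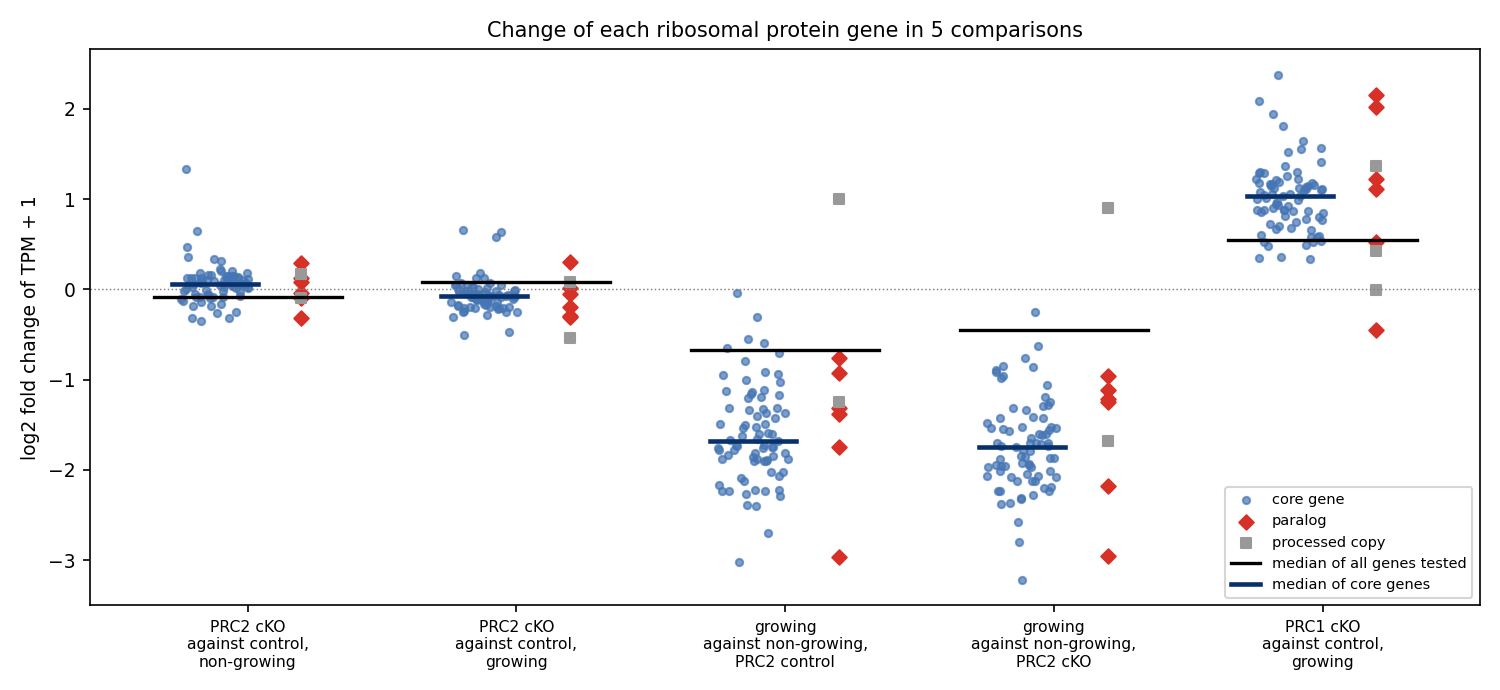
Log2 fold change of TPM + 1 (vertical axis) of each ribosomal protein gene in 5 comparisons, with core genes as circles, paralogs as diamonds and processed copies as squares. The blue bar is the median of core genes and the black bar that of all genes tested; most core genes lie near 0 in both PRC2 cKO comparisons. Between stages 72 of 77 lie below the black bar in control and 76 in cKO, and in PRC1 cKO 69 lie above it.

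Loss of PRC2, which lowers gene activity through methylation of histone H3, was followed by no called change of a ribosomal protein gene. In non-growing oocytes 0 of 85 genes passed by limma, with 6 at an unadjusted p under 0.05, where 0.113% of all genes were higher and 0.198% lower. In growing oocytes 0 of 85 passed, with 5 unadjusted, where 0.120% of all genes were higher and 0.0495% lower. For the difference of the effects between stages, 0 of 85 passed, with 2 unadjusted, and 0.0919% of all genes had a higher and 0.00707% a lower effect in growing oocytes. Over all 14153 genes tested, 2316, 1407 and 2230 had an unadjusted p under 0.05 in the same order, a larger part than among the 85. The core medians were 0.05 in non-growing and -0.07 in growing oocytes, beside -0.09 and 0.08 for all genes. These p-values do not show that the levels were equal, and the stage comparisons above use the same libraries.

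The members of smallest p are given as values. In non-growing oocytes Rps18 was higher in both cKO libraries than in the controls by the TPM above (1.33, SE 0.41, limma adjusted p = 0.226). In growing oocytes its libraries overlapped, and the difference between the stages was -1.58 (SE 0.58, limma adjusted p = 0.305). Rps7, a small-subunit protein that in human cells also binds Mdm2, had 292 and 287 TPM in the non-growing controls and 464 and 446 TPM in non-growing PRC2 cKO. The growing libraries had 88.5 and 85.99 TPM and 177 and 108 TPM. The cKO libraries of Rps7 were above the controls at both stages, with log2 fold changes of 0.65 and 0.66 that did not pass (limma adjusted p = 0.228 and 0.395). Rps2 in growing oocytes had 0.58 (limma adjusted p = 0.625).

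On the lower side, Rpl39 had 210.4 and 199 TPM in the non-growing controls and 183 and 161 TPM in non-growing PRC2 cKO (-0.25, limma adjusted p = 0.279). Rpl18 there had -0.18 (limma adjusted p = 0.301). In growing oocytes Rpl13 was at 296 and 286 TPM and 256 and 249.7 TPM (-0.20, limma adjusted p = 0.474) and Rps13 had -0.20 (limma adjusted p = 0.486). The differences between stages of Rpl39 (0.31), Rpl8 (0.27) and Rps24 (-0.25) did not pass either (limma adjusted p = 0.324, 0.355 and 0.314).

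In growing oocytes labelled PRC1 cKO ribosomal protein genes were higher. By limma 79 of 86 were higher and none lower, where 41.3% of all 14941 genes tested were higher and 6.45% lower. Of the 77 core genes 73 passed. The core median was 1.04 on the log2 scale, beside 0.55 for all genes tested. The small subunit had a median of 1.04 and the large subunit 1.01. The exceptions among core genes were Rpl17, Rpl12, Rps13 and Rpl5, whose changes lay between 0.33 and 0.53 without passing (limma adjusted p from 0.0681 to 0.324). Rpl17, Rps13 and Rpl5 had changes of -0.12, -0.13 and -0.06 after trimmed-mean scaling, and these 4 genes were singled out after their values were seen.

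The core genes of smallest p were Rps27, Rps28, Rpl9, Rps26 and Rpl37a. Rps27 had 255 and 308 TPM in the PRC1 controls and 1253 and 1132 TPM in PRC1 cKO (2.08, SE 0.15, limma adjusted p = 0.00212). Rpl9, a large-subunit protein near the stalk, was at 69.7 and 91.2 TPM and 474 and 371 TPM (2.38, SE 0.20, limma adjusted p = 0.00243), the largest change of a core gene. For both, the lower cKO library was well over the higher control. Rpl9 shares 77.4% of its windows with 5 other models. Rps28 was at 42.7 and 42.6 TPM and 164 and 142 TPM (1.82, SE 0.14). Rps26, which like Rps28 lies at the messenger exit, was at 211 and 196 TPM and 629 and 545 TPM (1.52, SE 0.14). Rpl37a, a zinc-finger protein of the large subunit, had 1.37 (SE 0.12). With trimmed-mean scaling these 5 genes passed too (limma adjusted p at most 0.0062), and with each library left out in turn (at most 0.00861).

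The count depends on the scale and on single libraries. Over all genes 6176 were higher and 964 lower as deposited, 4069 and 2196 with trimmed-mean scaling, and 2722 and 2636 with quantile normalization. Of 86 ribosomal protein genes 79 were called as deposited, all higher. With trimmed-mean scaling 45 were higher and 1 lower, and with quantile normalization 59 and 1. The median of all genes was 0.55 as deposited and 0.16 after trimmed-mean scaling, and the core median was above it by 0.49 and 0.42. Without PRC1 control replicate 1 the count was 42, and without the filter on low values it was 52.

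In 5 of 6 tested pairs the paralog and its parent changed by different amounts between the stages. In control oocytes all 6 paralogs were lower in growing oocytes by limma, from -0.76 for Rpl39l to -2.96 for Rpl10l, and all 6 were lower in cKO. With trimmed-mean scaling Rpl39l turned to 0.05 in control, and Rps27l was at -0.11 without passing (limma adjusted p = 0.577). Ratios of TPM within a library, printed below as percents, do not change when all its values are multiplied by 1 factor. Quantile normalization would change them. The log2 ratio tested was that of TPM + 1, which such a factor can move. For 6 pairs it was compared between 4 non-growing and 4 growing PRC2 libraries by an exact two-sided permutation test. The p-values were adjusted over the 6 pairs. In 5 pairs every growing library lay on 1 side of every non-growing one (exact permutation p = 0.0286, the smallest possible, adjusted 0.0343 each). No such count was made for other pairs of genes. Of all genes tested, 54.0% were lower and 16.6% higher between stages in control. The count is therefore not read as particular to paralogs.

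Rps27l was closer to its parent in growing oocytes, and above it in all growing PRC2 libraries but cKO replicate 1. It was at 893 and 858 TPM in control non-growing and 475 and 443 TPM in control growing oocytes (-0.93, SE 0.10, limma adjusted p = 0.000206), a smaller fall than that of Rps27. Its level was 29.8% and 30.1% of Rps27 in control non-growing and 115% and 141% in control growing oocytes. In PRC2 cKO the values were 23.2% and 26.5% and 93.5% and 107%. The log2 ratio was higher by 2.05 in growing oocytes, in 4 of 4 libraries. In PRC1 control Rps27l was at 135% and 122% of Rps27, and in PRC1 cKO at 39.6% and 47.5%. Its own level was 344 and 375 TPM in the PRC1 controls and 496 and 538 TPM in PRC1 cKO (0.52, limma adjusted p = 0.0245), a rise that trimmed-mean scaling reduced to 0.06 (limma adjusted p = 0.8) and that reached an adjusted p of 0.21 with 1 library left out. The percent of the parent does not change when a library is multiplied by 1 factor.

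Rpl22l1 was above its parent in every library. Rpl22 and Rpl22l1 bind RNA, and in mouse cells Rpl22 holds back its paralog. Rpl22l1 was at 243 and 243 TPM in control non-growing and 79.5 and 64.3 TPM in control growing oocytes, and Rpl22 at 85.1 and 78.2 TPM and 32.2 and 32.2 TPM. The paralog thus stood at 285% and 311% of its parent in the first group and 247% and 199.8% in the second, and at 303% and 302% and 169% and 187% in cKO. The log2 ratio was lower by 0.60 in growing oocytes. In PRC1 cKO Rpl22l1 had the smallest p of all 86 genes, with 54.96 and 57.9 TPM in the controls and 241 and 221 TPM in PRC1 cKO (2.02, SE 0.13, limma adjusted p = 0.00208). It moved from 142% and 142% of Rpl22 to 282% and 355%.

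Rpl10l fell with growth more than Rpl10. Rpl10l has a single exon and lies on chromosome 12, while Rpl10 is X-linked. It was at 136 and 147 TPM in control non-growing and 18.5 and 16.1 TPM in control growing oocytes, and at 172 and 176 TPM and 24.03 and 19.3 TPM in cKO. As a part of Rpl10 it stood at 26.8% and 29.9% and 7.77% and 8.04% in control, a log2 ratio lower by 1.65 over all PRC2 libraries. In PRC1 cKO it rose from 13.9 and 14.1 TPM to 63.9 and 67.6 TPM (2.15, SE 0.15, limma adjusted p = 0.00212), from 6.29% and 5.07% of Rpl10 to 9.49% and 15.5%. Of Rpl10's windows 83.3% are shared with 8 other models, and of Rpl10l's none.

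For Rpl39l no difference in the ratio to Rpl39 between stages was detected. The paralog was at 59.7% and 60.3% of Rpl39 in control non-growing and 65.6% and 69.9% in control growing oocytes, and at 70.1% and 64.4% and 58.2% and 48.4% in cKO. The ranges of the stages overlapped (log2 ratio lower by 0.08, exact permutation p = 0.543), which does not show that the ratio is equal. In PRC1 cKO Rpl39l rose from 74.5 and 83.95 TPM to 202 and 169 TPM (1.22, SE 0.16, limma adjusted p = 0.00465), and Rpl39 from 91.6 and 86.7 TPM to 133 and 123 TPM (0.52, limma adjusted p = 0.0269, 0.765 with trimmed-mean scaling and up to 0.16 with 1 library left out). The paralog was below its parent in PRC1 control, at 81.3% and 96.8%, and above it in PRC1 cKO, at 152% and 137%.

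The other 3 paralogs differ in kind. Rpl7l1 is a relative of Rpl7 whose yeast counterpart acts in assembly of the large subunit. It was at 18.04% and 16.6% of Rpl7 in control non-growing and 24.8% and 25.3% in control growing oocytes, and its log2 ratio was higher by 0.67 over the PRC2 libraries. In PRC1 control it was at 27.8% and 22.97% and in PRC1 cKO at 21.1% and 26.9%, with overlapping ranges. Rps4l, a transcribed processed pseudogene in the annotation, was at 41.6% and 45.3% of the X-linked Rps4x in control non-growing and 50.97% and 49.7% in control growing oocytes (log2 ratio higher by 0.40 over the PRC2 libraries). It is the 1 paralog that did not rise in PRC1 cKO, with 222 and 283 TPM in the controls and 246 and 137 TPM in PRC1 cKO (-0.45, limma adjusted p = 0.279). Its ratio to Rps4x moved from 97.3% and 109.8% to 41.1% and 26.98%, and with trimmed-mean scaling its fall passed (-0.91, limma adjusted p = 0.03). Rpl3l, a muscle paralog of Rpl3, was at most 0.98 TPM in any library and was not tested.

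Among the paralog ratios, PRC2 cKO and control libraries differed less than the stages did for Rps27l and Rpl10l. The log2 ratio differed between cKO and control by -0.27 to 0.16 in non-growing oocytes and by -0.35 to 0.39 in growing oocytes over the 6 pairs. With 2 against 2 libraries these differences could not be tested for a single ratio. In PRC1 cKO against control the log2 ratio differed by -1.56 for Rps27l, -1.63 for Rps4l, 1.15 for Rpl22l1, 1.03 for Rpl10l and 0.70 for Rpl39l. In each of these 5 pairs both cKO libraries lay on 1 side of both controls. Other pairs of genes were not counted in this way, and 41.3% of all genes were higher and 6.45% lower in PRC1 cKO. This count is not read as particular to paralogs either.

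**Figure D4:**
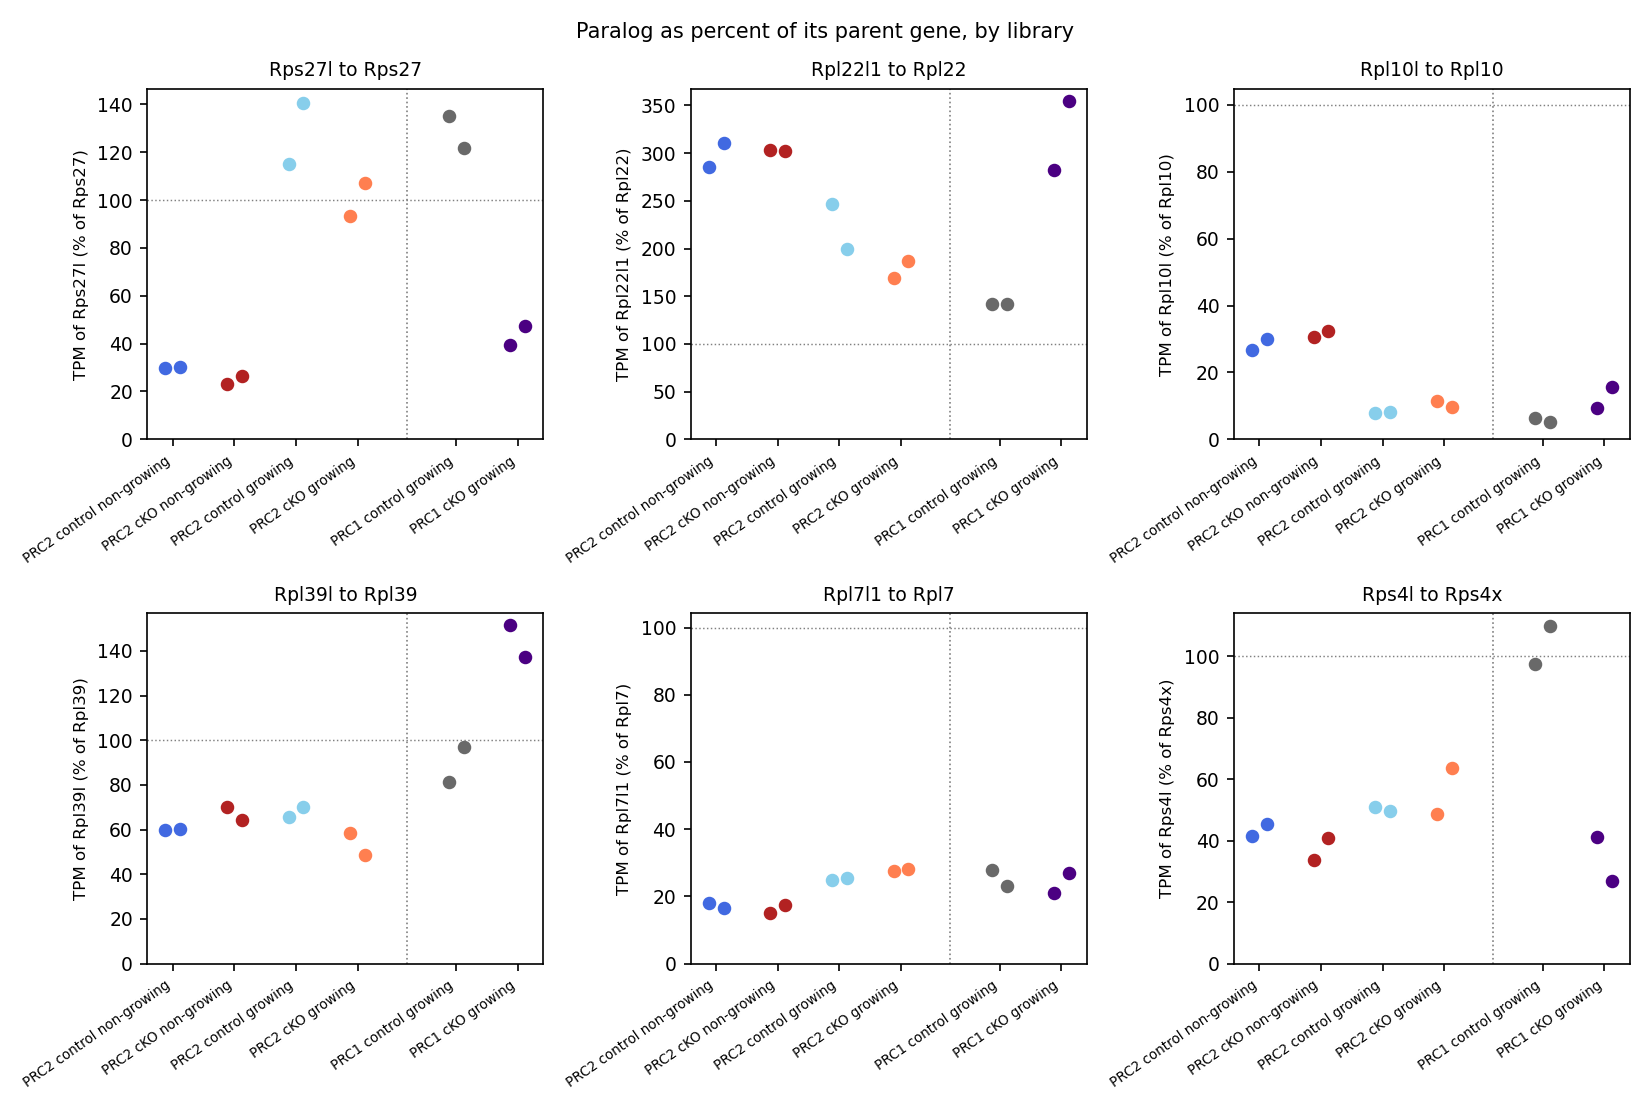
TPM of 6 paralogs as percent of the parent gene (vertical axes from 0) in each of 12 libraries, with 2 points per group and a dotted horizontal line at equal levels and a dotted vertical line between the 2 tables. Rps27l moves from 23.2 to 30.1% of Rps27 in non-growing to 93.5 to 141% in growing PRC2 libraries, and lies at 39.6 and 47.5% in PRC1 cKO.

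The processed copies were low. Rps12l1 was the highest, at 36.5 and 31.5 TPM in control non-growing and 16.7 and 11.2 TPM in control growing oocytes, and at 6.45 and 9.46 TPM in PRC1 control and 25.2 and 18.8 TPM in PRC1 cKO (1.37, limma adjusted p = 0.0134). Rpl6l, at 0 and 0.15 TPM in control non-growing and 0.63 and 1.82 TPM in control growing oocytes, passed the filter only through its growing libraries. It is the 1 member counted as higher with growth above, and that count is not read as a result. Rps3a2, Rps3a3 and Rpl32l stayed under 1 TPM in the PRC2 table and were not tested there. A read from a core gene can match such a copy, and its part in these values was not tested.

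Core genes that fell further with growth tended to rise further in PRC1 cKO. Across the 77 core genes, the stage change in PRC2 control and the PRC1 cKO change were inversely related (Pearson r = -0.613, Spearman rho = -0.591, n = 77 genes). These come from separate tables with no library in common, and the genes share libraries within each table, so the value is a description with no test. No such value was computed over all genes, whose medians were -0.67 and 0.55. The relation is therefore not read as particular to core genes. Rps27 stands at one end, with -3.02 and 2.08, and Rps13 at the other, with -0.04 and 0.33. Rps18 and Rpl9 lie off the trend. Rps18 had -0.30 and 1.17, and Rpl9 -1.75 and 2.38. Of the paralogs Rpl10l lies beside Rps27, and Rps4l is the only one below 0 in PRC1 cKO.

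**Figure D5:**
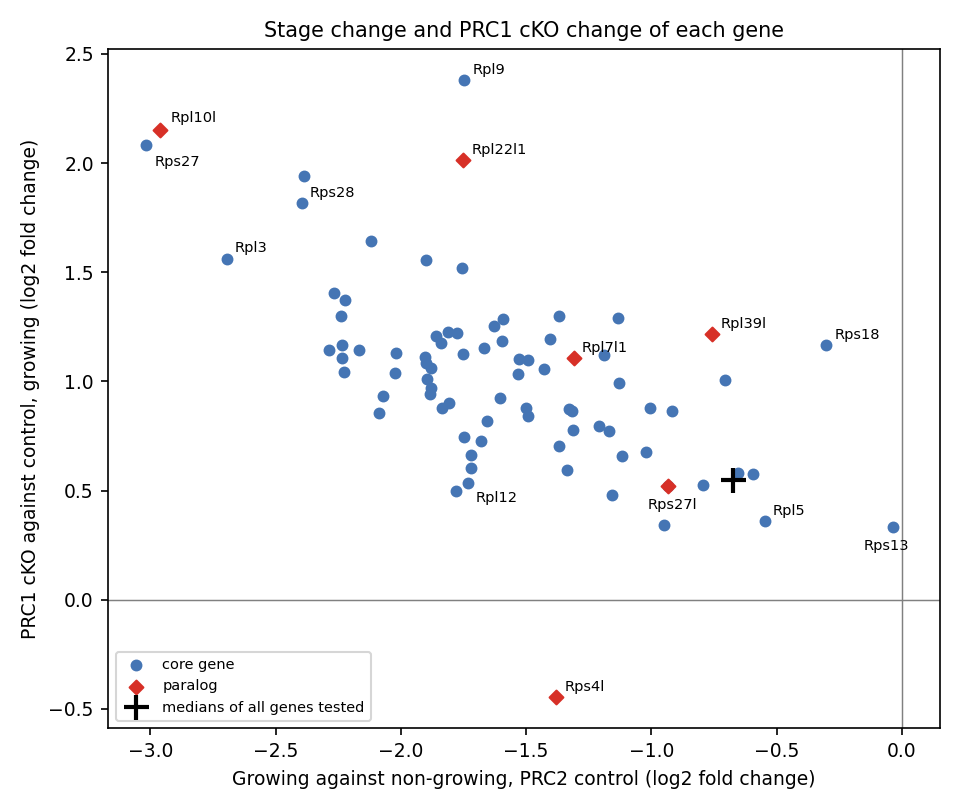
Log2 fold change of growing against non-growing PRC2 control oocytes (horizontal axis) and of PRC1 cKO against PRC1 control growing oocytes (vertical axis) for each core gene (circles) and each tested paralog (diamonds). The cross marks the medians of all genes tested, -0.67 and 0.55; most core genes lie to its upper left.

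Other genes of ribosome production were taken from fixed lists. Beside the counts below, 54.0% of all genes were lower between stages in control and 46.0% in cKO, and 41.3% were higher in PRC1 cKO. Of the 4 ribosomal parts outside the name rule, all 4 were lower in growing control oocytes and in growing cKO oocytes, and all 4 were higher in PRC1 cKO. Rack1, a scaffold on the small subunit, had a log2 fold change of -1.48 between stages in control (limma adjusted p = 1.36e-05). Of translation factors whose mRNAs carry a TOP motif, 15 of 16 were lower in control, 16 of 16 in cKO and none was higher, and 13 of 16 were higher in PRC1 cKO. The elongation factor subunit Eef1g was at 276 and 283 TPM in control non-growing and 50.5 and 39.6 TPM in control growing oocytes (-2.62, limma adjusted p = 9.30e-06). In the PRC1 table Eef1g had 50 and 72.6 TPM in the controls and 322 and 238 TPM in PRC1 cKO (2.18, limma adjusted p = 0.0036). The list medians were -1.50 in control and -1.54 in cKO between stages and 0.69 in PRC1 cKO, beside -0.67, -0.45 and 0.55 for all genes.

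Genes that make ribosomal RNA and assemble the ribosome are read against the same shares of all genes, 54.0% and 46.0% lower between stages and 41.3% higher in PRC1 cKO. Of 18 tested subunits and factors of RNA polymerase I, 14 were lower and 2 higher with growth in control, 12 and 2 in cKO, and 7 were higher and 1 lower in PRC1 cKO. Polr1e fell from 70.5 and 73.3 TPM to 15.7 and 18.8 TPM in control (-2.0). Of 49 tested rRNA processing and assembly genes 38 were lower and 2 higher in control, 30 and 4 in cKO, and 18 were higher and 1 lower in PRC1 cKO. Nop10, of the particle that makes pseudouridine, fell from 107 and 106 TPM to 24.5 and 24.4 TPM (-2.08). The 1 lower in PRC1 cKO was Bms1, a GTPase of small-subunit assembly, with 97.8 and 94.7 TPM in the controls and 47.7 and 45.1 TPM in PRC1 cKO (-1.04, limma adjusted p = 0.00474). In PRC1 cKO their share of higher genes was below that of all genes, and the medians of these lists, 0.53 and 0.48, lay below the 0.55 of all genes tested. None of these genes was called in PRC2 cKO against control at either stage, with 1 and 7 unadjusted p under 0.05 in non-growing and 1 and 4 in growing oocytes. Of all 14153 genes tested, 2316 in non-growing and 1407 in growing oocytes had an unadjusted p under 0.05.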

How the data were processed

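Expression was measured in 12 libraries. The TPM values deposited by the authors came in 2 tables, each with 1 column per library, and 0 value columns were left unused. The build was GRCm38/mm10 and the tools named are RSEM 1.3.3, Subread 2.0.3, HISAT2, SAMtools and Trim Galore 0.6.10, per the submitters' processing notes. The tool behind the TPM and the use of strand were not given in the sources used here. TPM keeps no depth, so no interval for a single value can be given.

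Genes reaching 1 TPM in 2 or more libraries were tested, 14153 and 14941, including 85 and 86 of the 89 members. Values were taken as log2(TPM + 1), which understates changes of low genes, and analysed by limma 3.58.1 under R 4.3.3 (eBayes with a trend, all groups of a table in 1 fit, two-sided), with Benjamini-Hochberg adjusted p-values over the genes of a contrast and a threshold of 0.05. Tests were made only within a table. The fit was tested on simulated data.

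The members and gene lists were chosen with earlier results of these data known, and copies were separated from paralogs after the names in the tables were seen. Named were all paralogs with their parents, up to 5 passing core genes of smallest p in each direction of a contrast (2 where fewer than 2 passed), the 3 highest and 3 lowest core genes, and up to 3 genes of each list. Some genes that this rule names are not reported here. Alternatives were the pseudocount, the filter, 3 other scalings, a replicate block, fits of the groups compared alone and each library left out.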

Additional observations from a re-analysis of the deposited data

How the results depend on the processing

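In every alternative the core median kept its sign between stages and in PRC1 cKO. Its size moved with scaling. With trimmed-mean scaling, quantile normalization and rescaling to nuclear protein-coding genes it was -0.865, -1.13 and -1.19 between stages in PRC2 control, -1.16, -1.25 and -1.25 for PRC2 cKO, and 0.574, 0.781 and 0.789 in PRC1 cKO. With trimmed-mean scaling it was 0.195 in PRC2 cKO non-growing oocytes and -0.392 for the difference between stages. PRC1 cKO calls of ribosomal protein genes were 79 as deposited, 46 with trimmed-mean scaling and 52 without the filter, where more genes were tested. No core gene had a stage change above 0 as deposited. In control 7 of 77 had with trimmed-mean scaling, which moved the median of all genes from -0.67 to -0.03, 3 with quantile normalization and 2 with protein-coding rescaling, and in cKO 1, 2 and 1. Among genes described above that passed as deposited or were singled out, trimmed-mean scaling gave 0.055 for Rpl39l, 0.208 for Rpl5 and 0.779 for Rps13 in control, and 0.334 for Rps13 in cKO. With quantile normalization Rps13 was at 0.630 in control and 0.402 in cKO and Rpl39 at 0.015 in cKO, and with protein-coding rescaling Rps13 was at 0.456 and 0.246.

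Leaving out each library in turn gave 0 to 1 calls in PRC2 cKO against control at each stage and for their difference, 78 to 83 between stages in control, 80 to 84 in cKO and 42 to 79 in PRC1 cKO. Core medians ranged from 0.036 to 0.090 in PRC2 cKO non-growing oocytes, -0.191 to 0.0063 in growing oocytes, -0.249 to -0.063 for the difference, -1.75 to -1.56 between stages in control, -1.93 to -1.68 in cKO and 0.832 to 1.17 in PRC1 cKO. The share difference ranged from -4.05 to -3.92 percentage points. The log2 ratio differences ranged from 1.94 to 2.14 for Rps27l, -0.707 to -0.529 for Rpl22l1, -1.76 to -1.58 for Rpl10l, -0.151 to 0.023 for Rpl39l, 0.620 to 0.710 for Rpl7l1 and 0.313 to 0.460 for Rps4l. With 7 libraries the smallest possible permutation p is 0.0571, so these no longer pass by construction. Without PRC2 cKO growing replicate 1, 922 genes were called for the difference between stages, against 14 with all libraries.

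Whether replicate numbers pair the libraries cannot be decided from 2 libraries per group. Same-numbered libraries correlated at -0.030 to 0.260 among PRC2 groups and at -0.268 between PRC1 groups. With the replicate block the calls were 0 in each PRC2 cKO comparison, 83 between stages in control and in cKO, and 67 in PRC1 cKO. With the crossed pairing in the PRC1 table, chosen after seeing the data, 83 were called.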

Other observations

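Pseudogene models of ribosomal proteins, 319 in each table, moved with the core genes. They held 0.769 and 0.72% of TPM in PRC2 control non-growing and 0.252 and 0.251% in PRC2 control growing oocytes. In the PRC1 table they held 0.215 and 0.222% in control and 0.494 and 0.386% in the libraries labelled PRC1 cKO. How reads of core genes and of these models were divided was not given in the sources used here.

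Among regulators of mRNAs with a TOP motif, Eif4ebp1, an inhibitor of cap-dependent translation, was at 237 and 251 TPM in PRC2 control non-growing and 50 and 38.8 TPM in PRC2 control growing oocytes (log2 fold change -2.44, limma adjusted p = 1.39e-05). In PRC1 libraries its levels were 67.4 and 96.8 TPM for control and 265 and 227 TPM for cKO (1.59, limma adjusted p = 0.00516). Of the 10 tested regulators 6 were lower and 0 higher between stages in control, where 54.0% of all genes were lower, and 3 of 11 were higher and 0 lower in PRC1 cKO, where 41.3% of all genes were higher. Their medians were -0.49 and 0.46, closer to 0 than the -0.67 and 0.55 of all genes. Of 10 ribosomal protein chaperones and surveillance factors 7 were lower between stages in control (median -1.46, beside -0.67 for all genes). In cKO 5 were lower and 1 higher (median -0.47, beside -0.45 for all genes, of which 46.0% were lower). In PRC1 cKO 4 were higher and 2 lower (median 0.61, beside 0.55 for all genes). Tsr2, which delivers Rps26 to the ribosome in yeast and human cells, was at 41.6 and 44.6 TPM in control non-growing and 11.8 and 12.01 TPM in control growing oocytes (-1.77, limma adjusted p = 2.32e-05).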
